A study of Mus musculus with 8 samples.

Results

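The p53 pathway was followed through 10 genes in all 8 RNA-seq samples of the series: *Trp53* (the mouse p53 gene), its negative regulators *Mdm2* and *Mdm4*, and the p53 targets *Cdkn1a*, *Ccng1*, *Zmat3*, *Bbc3*, *Phlda3*, *Trp53inp1* and *Eda2r*. The genes were chosen by symbol, and all 10 were found in the tables of 39089 genes. Each was abundant enough to be tested, together with 13921 genes in total. The tumors were grown from Myc-CaP, a mouse prostate cancer line derived from a prostate tumor of a c-Myc transgenic mouse. The cells carried either an empty control vector (WT) or an *Arid1a* guide RNA (*Arid1a* KO), which targets a DNA-binding component of the SWI/SNF remodeler, and were injected under the skin of male FVB mice 6 weeks old. From day 16 the hosts received JSH-23, an inhibitor of NF-κB signaling given in DMSO and corn oil, or the corn oil vehicle, by gavage each day for 2 weeks. EpCAM+ CD45- cells were then sorted for RNA, giving 2 samples in each of 4 groups: WT with vehicle, *Arid1a* KO with vehicle, WT with JSH-23 and *Arid1a* KO with JSH-23. The sources do not say whether the KO cells were 1 clone or a pool, nor which tumor or how many tumors gave each sample, so the p-values below measure only the spread between these samples, which may be technical.

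p53 is a transcription factor that is kept scarce in unstressed cells and stabilized by DNA damage and other stresses. MDM2 marks p53 for degradation and MDM4 binds and inhibits it, and since *Mdm2* is itself a p53 target the pathway carries its own brake. Active p53 turns on genes for cell cycle arrest, apoptosis, DNA repair and metabolism, mainly through DNA sites built from pairs of a short half-site, and most of its control is exerted on the protein, which RNA counts do not measure.

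The samples held 16401581 to 21972231 counted reads. *Arid1a* itself was lower in both KO groups: 156 and 161 CPM (reads of a gene per library total, scaled by TMM) in WT and 103 and 106 CPM in *Arid1a* KO with vehicle, and 144 and 155 CPM against 93.8 and 95.9 CPM with JSH-23, so the transcript was reduced 1.52-fold and 1.58-fold and was not lost. The epithelial keratin gene *Krt8* was detected in every group (mean 33.0 to 112 CPM), but the marker used for the sort was nearly absent, with 0 to 4 *Epcam* reads in each sample, and *Krt18* and *Cdh1* stayed below 1 CPM. The summed level of 8 leukocyte markers moved with genotype: it was 12.1 and 12.2 CPM in WT with vehicle, 3.43 to 4.07 CPM in *Arid1a* KO with vehicle, 5.41 to 12.9 CPM in WT with JSH-23 and 2.73 to 4.05 CPM in *Arid1a* KO with JSH-23. Most of it was *Lyz2*. *Itgam* had 0 reads in both *Arid1a* KO samples with vehicle and in the second JSH-23 sample of each genotype. The 6 fibroblast markers summed to 57.5 to 64.0 CPM in all groups except *Arid1a* KO with JSH-23 (41.0 and 41.1 CPM), but nearly all of this sum and of its drop was *Pdgfra* (group means 57.3, 60.7, 53.7 and 38.3 CPM), while *Dcn*, *Lum*, *Thy1* and *Pdgfrb* stayed below 1 CPM. The 4 hemoglobin genes summed to 3.74 to 6.82 CPM in WT and 8.73 to 12.6 CPM in *Arid1a* KO samples, and *Hba-a1* alone was higher in both KO groups (11.1 against 3.81 CPM with vehicle). Their part in the results below was not tested. The least abundant of the 10 genes was at 23.2 CPM or more in every sample. Fewer cells of a type and less RNA per cell cannot be told apart in such bulk samples.

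The DNA just upstream of the genes shows where the p53 half-site consensus is written next to the start. The 250 bases before each RefSeq start (GRCm38.p6) were searched for exact matches to the half-site consensus, 10 bases long and the same on both strands. RefSeq entries were found for 8 of the 10 genes, with 12 windows in all. A match was present for 4 of these genes, against 7.13% of 32851 windows and 8.2% of 27025 genes. They are printed in the direction of transcription with the half-sites in capitals, for *Cdkn1a* (chr17:29090729-29090978, plus strand), *Mdm2* (chr10:117710759-117711008, minus strand), *Ccng1* (chr11:40755287-40755536, minus strand) and *Trp53* itself (chr11:69580109-69580358, plus strand). The window of *Eda2r* (chrX:97377210-97377459, minus strand) is shown as well because *Eda2r* was the gene that moved most, and it held no match.
Cdkn1a: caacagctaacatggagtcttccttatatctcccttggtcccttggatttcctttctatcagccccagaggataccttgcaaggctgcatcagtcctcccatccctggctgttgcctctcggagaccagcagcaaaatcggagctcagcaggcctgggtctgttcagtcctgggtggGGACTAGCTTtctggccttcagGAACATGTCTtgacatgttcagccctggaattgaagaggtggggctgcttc
Mdm2: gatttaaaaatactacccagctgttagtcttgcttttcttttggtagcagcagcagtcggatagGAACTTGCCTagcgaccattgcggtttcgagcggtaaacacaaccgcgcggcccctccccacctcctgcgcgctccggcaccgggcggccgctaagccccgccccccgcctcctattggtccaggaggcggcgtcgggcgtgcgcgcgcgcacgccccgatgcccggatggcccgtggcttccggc
Ccng1: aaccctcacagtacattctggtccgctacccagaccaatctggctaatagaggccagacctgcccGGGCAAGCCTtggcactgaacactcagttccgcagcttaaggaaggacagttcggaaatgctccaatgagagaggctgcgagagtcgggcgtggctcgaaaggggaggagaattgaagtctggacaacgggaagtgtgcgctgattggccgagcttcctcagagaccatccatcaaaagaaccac
Trp53: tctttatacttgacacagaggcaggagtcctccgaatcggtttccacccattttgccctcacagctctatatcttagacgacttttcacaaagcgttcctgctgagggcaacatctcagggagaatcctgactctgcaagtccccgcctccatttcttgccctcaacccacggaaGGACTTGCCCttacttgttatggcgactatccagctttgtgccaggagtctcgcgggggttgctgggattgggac
Eda2r: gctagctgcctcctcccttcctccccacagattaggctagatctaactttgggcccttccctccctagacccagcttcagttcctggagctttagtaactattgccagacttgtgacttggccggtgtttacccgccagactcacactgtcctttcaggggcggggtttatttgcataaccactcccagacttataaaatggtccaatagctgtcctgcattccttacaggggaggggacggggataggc

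*Cdkn1a* alone had a pair of half-sites, GGACTAGCTT at 73 to 64 bases and GAACATGTCT at 51 to 42 bases before the start, with 12 bases between them. They lie before the upstream start of *Cdkn1a*. Its other window (chr17:29093519-29093768, plus strand), before a start further downstream, held no match. Half-site pairs with at most 13 bases between them were found in 21 of the 32851 windows (0.0639%). *Mdm2* held GAACTTGCCT at 186 to 177 bases, *Ccng1* GGGCAAGCCT at 185 to 176 bases and *Trp53* GGACTTGCCC at 75 to 66 bases before the start. No window of *Mdm4*, *Phlda3*, *Bbc3* or *Eda2r* matched, and the windows do not reach introns or distal sites, where many p53 sites lie. A match is a description of the letters and not a measurement of p53 binding.

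Per gene length, *Cdkn1a* and *Zmat3* marked the top and the bottom of the pathway in WT tumors with vehicle. In TPM, which divides reads by gene length before scaling, the mean levels there were 110 for *Cdkn1a*, 83.5 for *Trp53*, 76.7 for *Phlda3*, 51.7 for *Ccng1*, 34.7 for *Mdm4*, 29.7 for *Eda2r*, 27.3 for *Trp53inp1*, 22.4 for *Bbc3*, 16.3 for *Mdm2* and 7.95 for *Zmat3*. The 2 samples of neighboring genes did not overlap anywhere in this order. *Eda2r* climbed from the sixth place to the second in *Arid1a* KO with vehicle (75.8 TPM, behind *Cdkn1a* at 177 TPM) and to the first in WT with JSH-23 (90.7 TPM). In WT with JSH-23 *Cdkn1a* followed at 75.0 TPM, and its samples overlapped those of *Phlda3* (72.3 TPM). In *Arid1a* KO with JSH-23 the samples of *Cdkn1a* (95.9 TPM) and *Eda2r* (92.6 TPM) overlapped each other, as did those of *Phlda3* (50.4 TPM) and *Trp53* (48.3 TPM) and those of *Mdm2* (19.4 TPM) and *Trp53inp1* (19.03 TPM). *Zmat3* was the lowest of the 10 genes in every group, between 6.99 and 9.42 TPM.

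**Figure D1:**
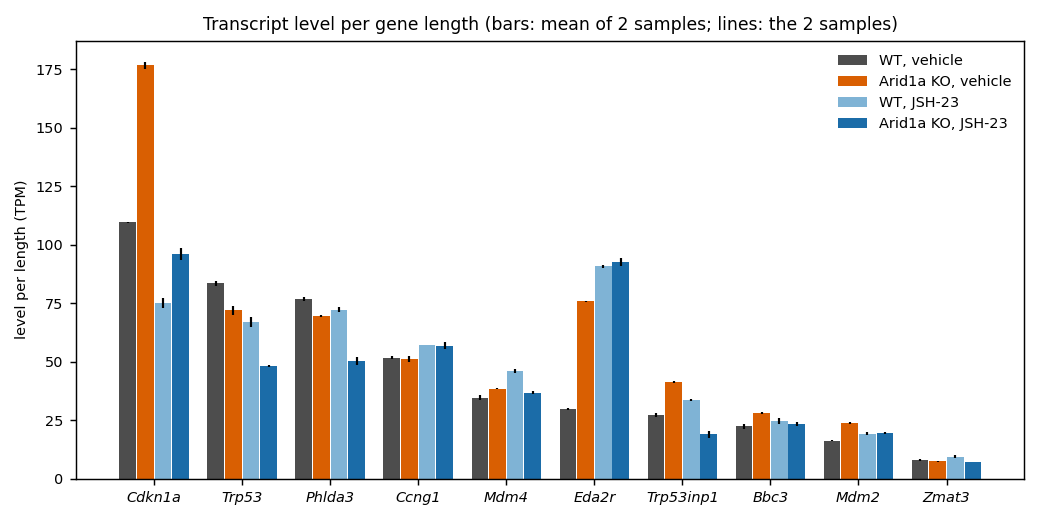
Level per gene length in TPM (vertical axis) of the 10 genes, ordered by WT with vehicle, with 1 bar for the mean of each group and a line spanning its 2 samples. The *Eda2r* bar is 29.7 TPM in WT with vehicle and 75.8 to 92.6 TPM in the other groups, while *Trp53* is highest in WT with vehicle (83.5 TPM) and lowest in *Arid1a* KO with JSH-23 (48.3 TPM).

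Group means of the 8 samples were compared in 1 edgeR model by its quasi-likelihood test, and p-values were adjusted over the 13921 genes by the Benjamini-Hochberg method. A gene was called, and is said to have risen or fallen, where the adjusted p was below 0.05 and the change at least 1.5-fold. Loss of *Arid1a* with vehicle raised 3 of the 10 genes, *Eda2r*, *Cdkn1a* and *Trp53inp1*, and lowered none, while 12.6% of all genes tested were called, 7.48% as higher and 5.16% as lower. With JSH-23 in both genotypes, loss of *Arid1a* lowered 1 gene, *Trp53inp1*, against 8.71% of all genes called, 3.74% as higher and 4.97% as lower. JSH-23 raised 1 gene in WT tumors, *Eda2r*, against 15.8% of all genes called, 5.55% as higher and 10.2% as lower. In *Arid1a* KO tumors JSH-23 lowered 2 genes, *Cdkn1a* and *Trp53inp1*, against 26.0% of all genes called, 9.10% as higher and 16.9% as lower. The effect of JSH-23 differed between the genotypes past the threshold for 2 genes, *Trp53inp1* and *Eda2r*, both below zero, against 9.07% of all genes called, 3.30% above zero and 5.76% below.

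Smaller differences were common in the whole table and among the 10 genes, since the 2 samples of a group were close (common biological coefficient of variation 1.61%). The 10 genes lay at 23.2 CPM or more in every sample, while the genes tested include scarcer ones. By adjusted p alone, 6 of the 10 genes were higher and 2 lower in *Arid1a* KO than in WT with vehicle, where 50.5% of all genes passed, 25.0% as higher and 25.5% as lower. With JSH-23 in both genotypes 4 were higher and 5 lower, beside 23.2% and 23.8% of all genes (47.0% together). JSH-23 left 7 higher and 2 lower in WT, beside 28.6% and 27.2% of all genes (55.8% together). In *Arid1a* KO it left 3 higher and 4 lower, beside 33.4% and 34.4% of all genes (67.8% together). The interaction term had adjusted p below 0.05 for 5 of the 10, 1 above zero and 4 below, beside 20.5% and 17.9% of all genes (38.4% together). The median log2 difference of the 10 genes was 0.23 for *Arid1a* loss with vehicle and 0.23 for JSH-23 in WT, beside 0.00 and -0.01 over all genes tested. It was -0.01 for *Arid1a* loss with JSH-23, -0.05 for JSH-23 in *Arid1a* KO and -0.20 for the interaction, beside -0.01, -0.02 and -0.0041. Values from the 2 genotype comparisons and the 2 drug comparisons share their samples and are not independent of each other.

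**Figure D2:**
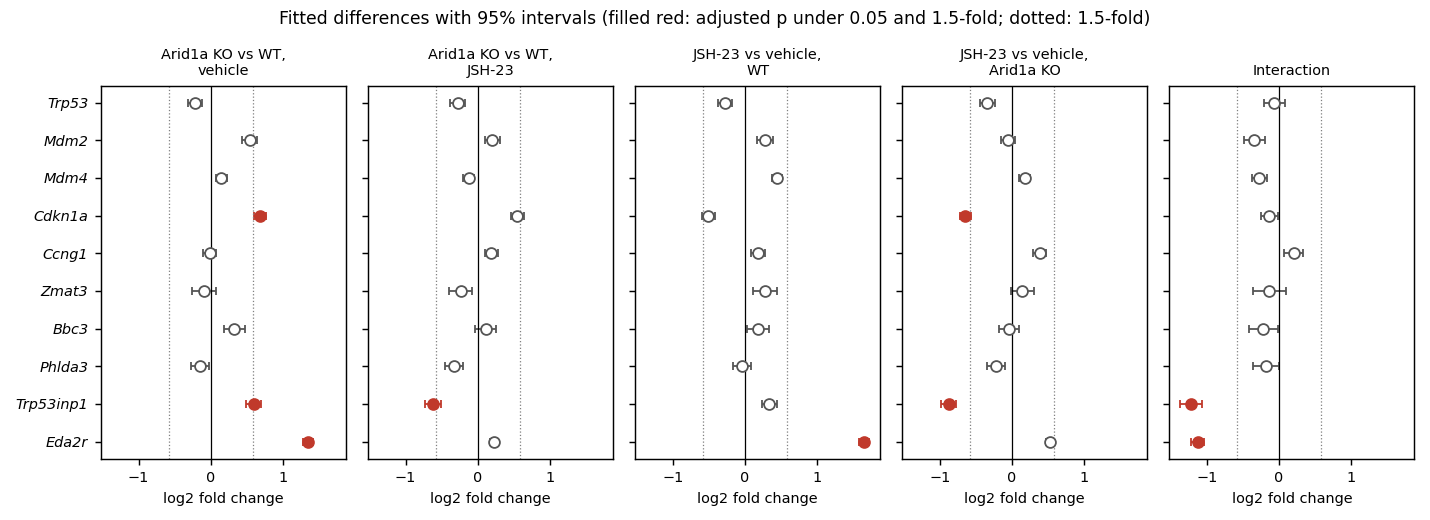
Fitted log2 differences (horizontal axis) of the 10 genes in the 4 comparisons between groups and in the interaction of genotype and JSH-23, with 95% intervals from edgeR. Filled red points are the 9 calls, and dotted lines mark 1.5-fold. *Eda2r* lies at 1.35 for *Arid1a* loss with vehicle and at 1.65 for JSH-23 in WT, and *Trp53inp1* lies right of zero for *Arid1a* loss with vehicle (0.60) and left of zero with JSH-23 (-0.62).

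*Trp53* mRNA was lower with *Arid1a* loss and lower again with JSH-23, by less than 1.5-fold each time. It was 74.9 and 76.6 CPM in WT with vehicle, 63.4 and 66.8 CPM in *Arid1a* KO with vehicle, 60.6 and 64.5 CPM in WT with JSH-23, and 51.8 and 51.1 CPM in *Arid1a* KO with JSH-23. The WT vehicle samples were the highest and the *Arid1a* KO samples with JSH-23 the lowest, and neither overlapped the other groups, while *Arid1a* KO with vehicle and WT with JSH-23 overlapped each other. The log2 difference was -0.22 ± 0.05 (SE, adjusted p = 1.15e-04 in edgeR's quasi-likelihood test) for *Arid1a* loss with vehicle and -0.28 ± 0.05 (adjusted p = 5.74e-06) with JSH-23. With JSH-23 against vehicle it was -0.28 ± 0.05 in WT (adjusted p = 2.27e-06) and -0.34 ± 0.05 in *Arid1a* KO (adjusted p = 1.71e-08). The interaction was -0.06 with a 95% interval from -0.21 to 0.08. None of these was called, and with the biological coefficient of variation set to 0.1 the adjusted p of *Trp53* was between 0.0548 and 0.327 in the 4 comparisons between groups.

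*Mdm2*, which encodes the ubiquitin ligase for p53 and answers to p53, was higher in *Arid1a* KO tumors but its difference stayed under the fold threshold. It was 48.4 and 47.3 CPM in WT with vehicle, 68.2 and 70.9 CPM in *Arid1a* KO with vehicle, 55.8 and 60.4 CPM in WT with JSH-23, and 68.1 and 65.5 CPM in *Arid1a* KO with JSH-23. No groups overlapped, but both *Arid1a* KO groups lay next to each other, with neighboring samples at 68.2 and 68.1 CPM. With vehicle the log2 difference was 0.54 ± 0.05 (1.46-fold, adjusted p = 4.57e-14), and with JSH-23 it was 0.20 ± 0.05 (adjusted p = 6.95e-04). JSH-23 was followed by a log2 difference of 0.28 ± 0.06 in WT (adjusted p = 1.75e-05) and of -0.06 in *Arid1a* KO (95% interval -0.16 to 0.04). The effect of JSH-23 thus differed between genotypes by -0.34 ± 0.07 (adjusted p = 1.21e-04).

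*Mdm4*, whose protein inhibits p53 without degrading it, was highest with JSH-23. It was 105 and 99.5 CPM in WT with vehicle, 114 and 112 CPM in *Arid1a* KO with vehicle, 136 and 142 CPM in WT with JSH-23, and 124 and 131 CPM in *Arid1a* KO with JSH-23. The 4 groups did not overlap, and the order of the genotypes turned with the drug. *Arid1a* loss gave a log2 difference of 0.14 ± 0.04 with vehicle (adjusted p = 0.00124) and of -0.13 ± 0.04 with JSH-23 (adjusted p = 0.00222). JSH-23 gave 0.45 ± 0.04 in WT (adjusted p = 1.51e-16) and 0.18 ± 0.04 in *Arid1a* KO (adjusted p = 2.09e-05), and the interaction was -0.27 ± 0.05 (adjusted p = 1.85e-05). The *Mdm4* difference for JSH-23 in *Arid1a* KO was -0.06 on the log2(TPM + 1) scale.

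Set against *Trp53* within each sample, both negative regulators were lowest in WT with vehicle and highest in *Arid1a* KO with JSH-23. The ratio of *Mdm2* to *Trp53*, both in TPM, was 0.191 and 0.200 in WT with vehicle, 0.328 and 0.332 in *Arid1a* KO with vehicle, 0.285 and 0.289 in WT with JSH-23, reaching 0.396 and 0.406 in *Arid1a* KO with JSH-23. The ratio of *Mdm4* to *Trp53* was 0.400 and 0.432, 0.518 and 0.552, 0.680 and 0.693, and 0.739 and 0.787 in the same order of groups. The groups did not overlap in either ratio. Such ratios compare RNA levels per length and say nothing of the proteins.

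Of the genes that act in arrest and growth control, *Cdkn1a*, which encodes the cyclin-dependent kinase inhibitor p21, rose with *Arid1a* loss in the vehicle groups and fell with JSH-23 in *Arid1a* KO. It was 88.4 and 88.5 CPM in WT with vehicle, 143 and 141 CPM in *Arid1a* KO with vehicle, 60.5 and 64.1 CPM in WT with JSH-23, and 93.1 and 88.7 CPM in *Arid1a* KO with JSH-23. *Arid1a* KO with vehicle stood highest and WT with JSH-23 lowest, and *Arid1a* KO with JSH-23 lay just above the level of WT with vehicle in CPM but below it in TPM (93.3 and 98.6 against 109 and 110 TPM). The rise with *Arid1a* loss was 0.68 ± 0.04 on the log2 scale with vehicle (1.61-fold, adjusted p = 5.69e-25, called). With JSH-23 the difference was 0.55 ± 0.04 (1.46-fold, adjusted p = 2.13e-17, under the fold threshold). For JSH-23 the difference was -0.64 ± 0.04 in *Arid1a* KO (1.56-fold, adjusted p = 7.51e-25, called) and -0.51 ± 0.05 in WT (1.42-fold, adjusted p = 1.41e-15, not called). The interaction was -0.14 ± 0.06 (adjusted p = 0.0604), which missed the threshold after adjustment, with an unadjusted 95% interval from -0.26 to -0.02. In the annotation used (GENCODE vM21), 7.68% of the exon bases of *Cdkn1a* also belong to an unnamed transcript on the opposite strand. The study's methods describe the read counts as strand-specific, though they and the submitters' processing notes name different aligners.

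*Ccng1*, which encodes cyclin G1, a p53 target that feeds back on MDM2, did not follow *Cdkn1a*. It was 73.1 and 70.8 CPM in WT with vehicle, 69.4 and 72.7 CPM in *Arid1a* KO with vehicle, 81.4 and 81.6 CPM in WT with JSH-23, and 90.0 and 95.5 CPM in *Arid1a* KO with JSH-23. The vehicle groups overlapped, with a log2 difference of -0.02 (95% interval -0.11 to 0.08), and both JSH-23 groups lay above them. JSH-23 was followed by a log2 difference of 0.18 ± 0.05 in WT (adjusted p = 7.40e-04) and of 0.38 ± 0.04 in *Arid1a* KO (adjusted p = 4.50e-12), with an interaction of 0.20 ± 0.06 (adjusted p = 0.00761). The genotypes with JSH-23 differed by 0.19 ± 0.04 (adjusted p = 2.06e-04) and by -0.01 on the log2(TPM + 1) scale. *Zmat3*, which encodes an RNA-binding zinc finger protein, was 27.1 and 24.1 CPM in WT with vehicle, 24.7 and 23.2 CPM in *Arid1a* KO with vehicle, 28.6 and 33.7 CPM in WT with JSH-23, and 26.3 and 26.6 CPM in *Arid1a* KO with JSH-23. Its vehicle groups overlapped (log2 difference -0.10, 95% interval -0.27 to 0.07). It was higher with JSH-23 in WT by 0.28 ± 0.08 (adjusted p = 0.00241), where its samples were the furthest apart of the 4 groups. In *Arid1a* KO the difference with JSH-23 was 0.15 (95% interval -0.02 to 0.31) and -0.08 on the log2(TPM + 1) scale, and with JSH-23 the genotypes differed by -0.24 ± 0.08 (adjusted p = 0.0105), which became -0.12 without the second and -0.35 without the first WT sample with JSH-23.

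Among the genes tied to apoptosis, *Bbc3*, which encodes the BH3-only protein PUMA, and *Phlda3*, which encodes an inhibitor of AKT signaling, had small differences of opposite sign with *Arid1a* loss. *Bbc3* was 27.4 and 29.7 CPM in WT with vehicle, 36.3 and 35.2 CPM in *Arid1a* KO with vehicle, 30.7 and 34.0 CPM in WT with JSH-23, and 36.0 and 33.6 CPM in *Arid1a* KO with JSH-23. The genotypes separated with vehicle (log2 difference 0.32 ± 0.07, adjusted p = 1.19e-04) and overlapped with JSH-23 (0.11, 95% interval -0.03 to 0.25, and -0.08 on the log2(TPM + 1) scale). *Phlda3* was 45.1 and 44.1 CPM in WT with vehicle, 39.9 and 40.4 CPM in *Arid1a* KO with vehicle, 43.8 and 42.6 CPM in WT with JSH-23, and 33.1 and 35.6 CPM in *Arid1a* KO with JSH-23. It was lower in *Arid1a* KO by 0.15 ± 0.06 on the log2 scale with vehicle (adjusted p = 0.0379) and by 0.33 ± 0.06 with JSH-23 (adjusted p = 1.32e-05). The interaction was -0.22 ± 0.10 for *Bbc3* (adjusted p = 0.0849) and -0.18 ± 0.09 for *Phlda3* (adjusted p = 0.110).

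*Trp53inp1*, which encodes a stress protein that promotes p53-dependent apoptosis and takes part in autophagy, had a genotype difference of opposite sign with vehicle and with JSH-23, past the fold threshold both times. It was 56.8 and 60.6 CPM in WT with vehicle, 87.4 and 89.9 CPM in *Arid1a* KO with vehicle, 75.1 and 73.6 CPM in WT with JSH-23, and 44.3 and 51.9 CPM in *Arid1a* KO with JSH-23. *Arid1a* KO was the highest group with vehicle and the lowest with JSH-23, and no groups overlapped. *Arid1a* loss raised it by 0.60 ± 0.05 on the log2 scale with vehicle (1.51-fold, adjusted p = 1.52e-16) and it fell by 0.62 ± 0.05 with JSH-23 (1.54-fold, adjusted p = 2.76e-16). JSH-23 was followed by a difference of 0.34 ± 0.05 in WT (1.27-fold, adjusted p = 1.01e-07, not called) and by a fall of 0.88 ± 0.05 in *Arid1a* KO (1.84-fold, adjusted p = 7.70e-25). The interaction was -1.22 ± 0.07 (adjusted p = 4.26e-23). The fold threshold was just met in both genotype comparisons: without 1 *Arid1a* KO sample with JSH-23 the difference with JSH-23 was -0.51, and without 1 WT or 1 *Arid1a* KO sample with vehicle the difference with vehicle was 0.55 or 0.57, none of which reached 1.5-fold.

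*Eda2r*, which encodes a receptor of the TNF receptor superfamily for an ectodysplasin isoform and can signal to NF-κB, had the largest differences of the 10 genes with vehicle and in WT. It was 71.4 and 73.7 CPM in WT with vehicle, 184 and 185 CPM in *Arid1a* KO with vehicle, 230 and 227 CPM in WT with JSH-23, and 259 and 272 CPM in *Arid1a* KO with JSH-23. WT with vehicle stood apart from the other 3 groups, which did not overlap each other. *Arid1a* loss raised it by 1.35 ± 0.04 on the log2 scale with vehicle (2.54-fold, adjusted p = 9.44e-44), and with JSH-23 the difference was 0.22 ± 0.03 (1.17-fold, adjusted p = 2.70e-10, not called). JSH-23 raised it by 1.65 ± 0.04 in WT (3.15-fold, adjusted p = 1.00e-49), and in *Arid1a* KO the difference was 0.53 ± 0.03 (1.44-fold, adjusted p = 5.12e-27, not called). The interaction of -1.13 ± 0.05 (adjusted p = 1.80e-32) was called. *Eda2r* and *Cdkn1a* both rose with *Arid1a* loss, but JSH-23 was followed by a higher level of *Eda2r* and a lower level of *Cdkn1a* in both genotypes.

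**Figure D3:**
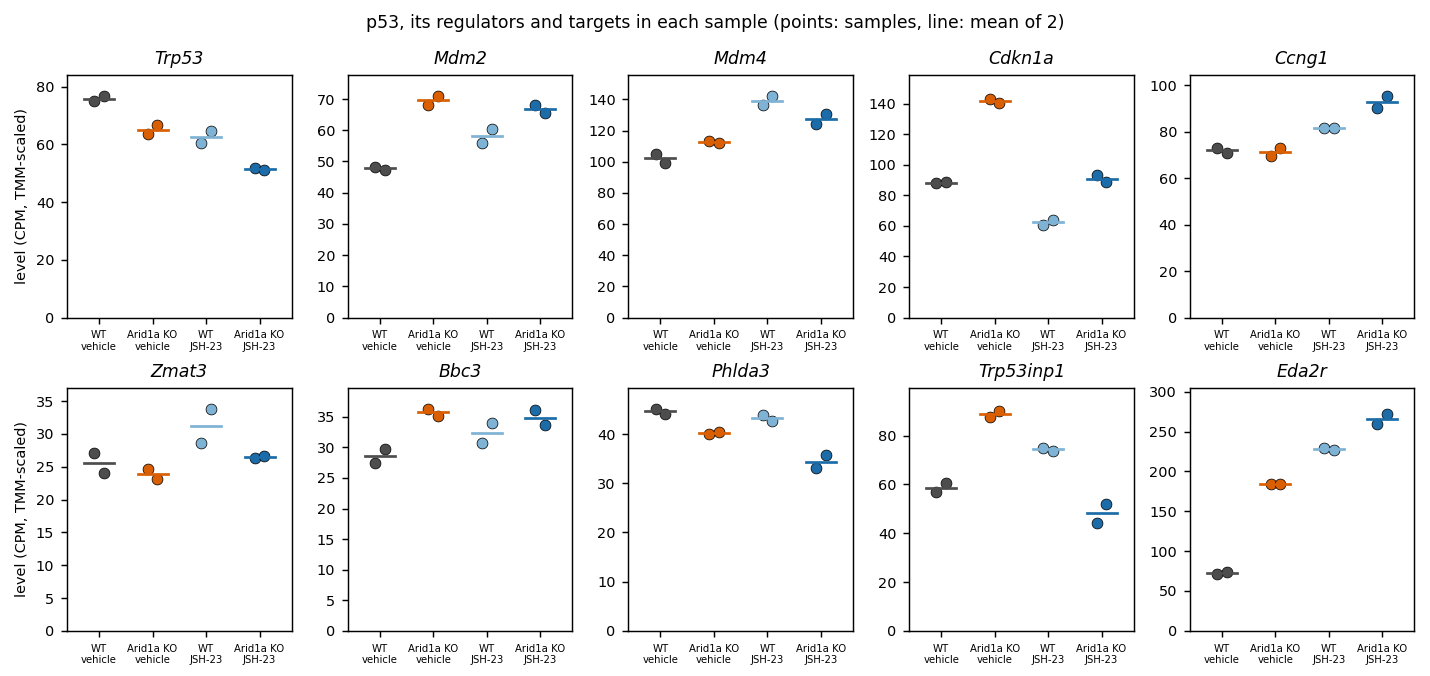
Level of each of the 10 genes in every sample (CPM scaled by TMM, vertical axes from 0), with 1 point for each sample and a line at the mean of the 2 samples of a group. *Cdkn1a* stands at 143 and 141 CPM in *Arid1a* KO with vehicle and between 60.5 and 93.1 CPM elsewhere, *Eda2r* is lowest in WT with vehicle (71.4 and 73.7 CPM), and *Trp53inp1* is lowest in *Arid1a* KO with JSH-23 (44.3 and 51.9 CPM).

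The scale matters for the groups with JSH-23. On the deposited TPM values the median log2 difference over all genes tested was -0.16 for *Arid1a* loss with JSH-23, -0.20 for JSH-23 in *Arid1a* KO and -0.17 for the interaction, where the TMM-scaled counts gave -0.01, -0.02 and -0.0041. The 10 genes shifted with it: on the log2(TPM + 1) scale the *Mdm2* difference between genotypes with JSH-23 was 0.01 and that of *Eda2r* 0.03, and for JSH-23 in *Arid1a* KO *Trp53* had a difference of -0.57 and *Cdkn1a* of -0.87. On that scale the interaction was -0.33 for *Cdkn1a* (limma, adjusted p = 0.00216) and -0.25 for *Trp53* (adjusted p = 0.0110), both under 1.5-fold.

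Around these genes, 36 further p53 targets were listed by function, of which 35 were tested. With vehicle, *Arid1a* loss raised 7 and lowered 5 of them (34.3% called, beside 12.6% of all genes), with a median log2 difference of -0.01. The 35 include *Sfn* and *Gdf15*, named here after their values were seen. In *Arid1a* KO with vehicle they had 11 and 17 reads and 13 and 12 reads. Every other sample held 0 to 5 reads of each, so both were abundant enough to be tested only through that group. The share of 34.3% includes them, and the lists were chosen with earlier results of these data known, so it is only a description. In the other comparisons the counts of calls lay nearer to those of all genes. *Arid1a* loss with JSH-23 raised 1 and lowered 2 (8.57%, beside 8.71% of all genes). JSH-23 raised 1 and lowered 4 in WT (14.3%, beside 15.8%), and raised 3 and lowered 7 in *Arid1a* KO (28.6%, beside 26.0%). The interaction was called for 5 of the 35 (14.3%, beside 9.07%), 1 above zero and 4 below.

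The targets that act in arrest and growth control held the largest share of calls with vehicle. Together with *Cdkn1a*, *Ccng1* and *Zmat3*, 8 of 13 tested were called for *Arid1a* loss with vehicle, 6 higher and 2 lower, with a median log2 difference of 0.68, where 12.6% of all genes were called, 7.48% as higher and 5.16% as lower. The 13 include *Sfn* and *Gdf15*, which could be tested only through *Arid1a* KO with vehicle, so the share draws partly on that group. The median rests on them: it is the value of *Cdkn1a*, and without *Sfn* and *Gdf15* it would be that of *Ccng1* (-0.02). The list as a whole is therefore not shown to be shifted. *Btg2*, an antiproliferative gene, was 33.7 and 38.8 CPM in WT with vehicle and 93.0 and 96.0 CPM in *Arid1a* KO with vehicle. It rose by 1.38 ± 0.06 on the log2 scale with *Arid1a* loss (adjusted p = 2.20e-32) and fell by 1.65 ± 0.06 with JSH-23 in *Arid1a* KO (adjusted p = 3.49e-37), to 31.1 and 29.2 CPM. *Gadd45a*, a DNA damage and stress gene, rose from a mean of 20.1 to 47.3 CPM with *Arid1a* loss (1.24 ± 0.08, adjusted p = 1.02e-22). *Psrc1*, a microtubule-associated gene known as p53-inducible, fell with *Arid1a* loss (from 17.5 to 10.7 CPM, log2 difference -0.71 ± 0.10, adjusted p = 1.74e-08) and rose by 1.33 ± 0.09 with JSH-23 in *Arid1a* KO (adjusted p = 7.63e-21).

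In the apoptosis list the called members for *Arid1a* loss with vehicle were *Eda2r* and *Trp53inp1* alone among 14 tested, where 12.6% of all genes were called. With JSH-23 in *Arid1a* KO 1 of the 14 rose and 2 fell, where 26.0% of all genes were called, 9.10% as higher and 16.9% as lower. JSH-23 in *Arid1a* KO raised *Bax*, which encodes a pore-forming protein of the outer mitochondrial membrane, by 0.65 ± 0.05 on the log2 scale, from a mean of 45.4 to 71.4 CPM (adjusted p = 3.99e-18). It lowered *Pidd1*, which encodes a scaffold for caspase activation, by 1.11 ± 0.11, from 17.3 to 8.02 CPM (adjusted p = 1.19e-13). Of 15 tested targets in metabolism, redox control and repair, 2 rose and 3 fell with *Arid1a* loss with vehicle (12.6% of all genes called, 7.48% as higher and 5.16% as lower). *Ddit4* and *Sesn2*, which restrain mTORC1 signaling, rose by 0.82 ± 0.02 and 0.75 ± 0.06 on the log2 scale (adjusted p = 2.30e-50 and 7.27e-17), and *Ephx1*, which encodes a microsomal epoxide hydrolase, fell by 0.78 ± 0.05 (adjusted p = 2.12e-23). With JSH-23 in *Arid1a* KO *Sesn2* fell by 1.42 ± 0.07, from 61.7 to 22.9 CPM (adjusted p = 4.08e-30), and *Tigar*, which lowers glycolytic flux, fell by 0.70 ± 0.19, from 4.86 to 2.99 CPM (adjusted p = 0.00116). The *Tigar* difference was -0.53 without the second *Arid1a* KO sample with JSH-23, under 1.5-fold.

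Few of the genes that act on p53 itself were called. For *Arid1a* loss with vehicle none of 28 tested regulators was called in edgeR's quasi-likelihood test, where 12.6% of all genes were, nor in DESeq2. Of the 28, however, 22 had an unadjusted p below 0.05. By adjusted p alone 9 were higher and 12 lower, beside 25.0% and 25.5% of all genes. JSH-23 in *Arid1a* KO lowered 1 of the 28, where 26.0% of all genes were called, 16.9% as lower. It was *Chek2*, a DNA damage checkpoint kinase, which fell from a mean of 32.3 to 20.97 CPM (log2 difference -0.62 ± 0.08, adjusted p = 1.26e-10). Without the first *Arid1a* KO sample with vehicle or the second with JSH-23 the difference was -0.57 and missed 1.5-fold. *Cdkn2a*, whose locus encodes the MDM2 inhibitor ARF besides p16, lay between 109 and 136 CPM in the group means, and was not called in any comparison. *Ppm1d*, a phosphatase that switches p53 signaling off, lay between 25.8 and 38.5 CPM and was not called either, with its largest difference for JSH-23 in WT (0.53 ± 0.08, adjusted p = 1.07e-08). Of the p53 family, *Trp63* was barely expressed (group means 0.64 to 1.65 CPM, adjusted p between 0.0501 and 0.768) and *Trp73* had 0 to 2 reads in each sample and was not tested.

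Genes that p53 is known to repress through p21 and the DREAM and RB complexes, most of them genes of cell division, were mixed for *Arid1a* loss with vehicle and mostly higher in *Arid1a* KO than in WT with JSH-23. With vehicle 3 of 20 tested fell and none rose (12.6% of all genes called), while 10 were higher and 8 lower by adjusted p alone. With JSH-23 in both genotypes 4 rose and none fell (8.71% of all genes called), and 18 were higher and none lower by adjusted p alone, with a median log2 difference of 0.40. The interaction was called above zero for 6 and below zero for none (9.07% of all genes called), with a median of 0.38. On the log2(TPM + 1) scale, where the median of all genes was lower in these comparisons, 1 and 3 of the 20 were called. With *Arid1a* loss in the vehicle groups *Cdc20*, an activator of the anaphase-promoting complex, fell from 109 and 106 CPM to 49.7 and 48.8 CPM (log2 difference -1.13 ± 0.04, adjusted p = 8.53e-34). In the same comparison *Ccnb1*, the mitotic cyclin B1, fell by 0.85 ± 0.05 and *Plk1*, a mitotic kinase, by 0.78 ± 0.06 on the log2 scale (adjusted p = 1.20e-26 and 2.21e-18). JSH-23 in *Arid1a* KO raised 6 of the 20 and lowered 1, with a median log2 difference of 0.28, where 26.0% of all genes were called, 9.10% as higher and 16.9% as lower. *Cdc20* rose by 1.37 ± 0.04 to 125 and 129 CPM (adjusted p = 1.64e-40), *Aurka*, a mitotic kinase, by 0.97 ± 0.05 (adjusted p = 3.27e-27), and *Prc1*, which bundles the spindle midzone, by 0.72 ± 0.03 (adjusted p = 4.60e-33). *Mcm2* and *Mcm5*, the replication helicase genes of the list, named here after their values were seen, had log2 differences of 0.55 ± 0.04 and 0.35 ± 0.04 for *Arid1a* loss with vehicle (adjusted p = 2.77e-19 and 1.33e-13) and of -0.37 ± 0.04 and -0.43 ± 0.03 for JSH-23 in *Arid1a* KO (adjusted p = 3.46e-13 and 7.91e-18), the same signs as *Cdkn1a* in both comparisons. Of 6 other inhibitors of cyclin-dependent kinases, none was called for *Arid1a* loss with vehicle in edgeR (12.6% of all genes called) or DESeq2 (3 had an unadjusted p below 0.05). With JSH-23 in *Arid1a* KO 2 of the 6 were called, beside 26.0% of all genes. *Cdkn2c* rose (0.63 ± 0.05, adjusted p = 7.61e-19) and *Cdkn1c* fell (-0.83 ± 0.22, adjusted p = 8.40e-04), the latter from a mean of 4.25 to 2.39 CPM.

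**Figure D4:**
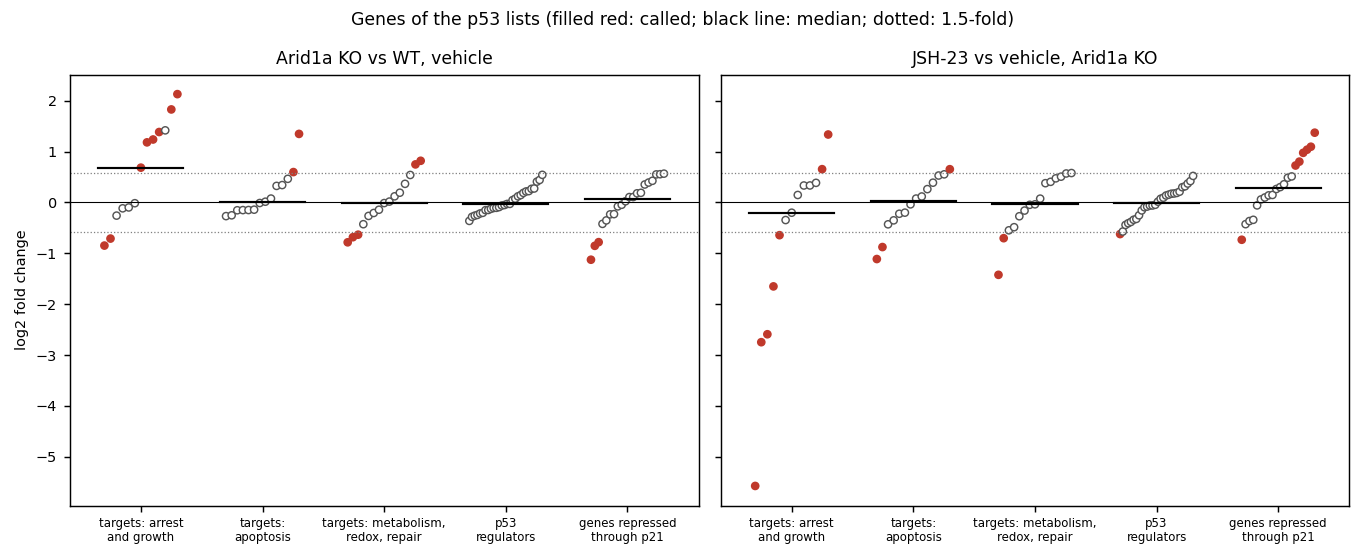
Fitted log2 differences (vertical axis) of the tested genes of 5 p53 lists, 1 point for each gene in order of its value, for *Arid1a* loss with vehicle (left) and JSH-23 in *Arid1a* KO (right). Filled red points are called genes and black lines are list medians, 0.68 for the arrest and growth list on the left and 0.28 for the genes repressed through p21 on the right. The median of 0.68 rests on *Sfn* and *Gdf15*, which could be tested only through *Arid1a* KO with vehicle, and would be -0.02 without them. The lowest point on the right, in the arrest and growth list, is *Trp53cor1*, named after its values were seen, a noncoding gene with 49 and 57 reads in *Arid1a* KO with vehicle and 0 and 2 reads with JSH-23, so that its fitted value is not a measured fold.

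Across the 8 samples the 10 genes did not move as 1 block. Pearson's r of log2 CPM over 8 samples in 4 groups, given as a description, was 0.94 between *Mdm2* and *Bbc3*, 0.87 between *Trp53* and *Phlda3* and 0.84 between *Mdm4* and *Eda2r*, but 0.08 between *Trp53* and *Cdkn1a*, -0.09 between *Cdkn1a* and *Eda2r* and -0.88 between *Trp53* and *Eda2r*. Of 9193 other genes whose mean reached 10 CPM, those closest to *Trp53* over the same 8 samples were *Kirrel* (r = 0.995), *Plekhm1* (0.992) and *Furin* (0.992), and 148 genes had r above 0.95. Those closest to *Cdkn1a* were *Msln* (0.999), *Dtl* (0.998) and *Brip1* (0.998), and 241 genes had r above 0.95. The samples share the 4 group means, so that such values reflect mainly how the groups are ordered.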

How the data were processed

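Sorted cells of 8 subcutaneous tumor samples (2 in each of 4 groups, grouped by the labels) were measured by RNA-seq. The authors deposited, per gene and sample, read counts made with HTSeq on mm10 (the study's methods and the submitters' processing notes name different aligners) and TPM values, which equal the deposited count divided by the gene length and scaled to the same total in every sample. Counts were fitted in R 4.3.3 with edgeR 4.0.16 (filterByExpr, TMM factors 0.949 to 1.03, 4 group means over 8 samples, quasi-likelihood test, Benjamini-Hochberg adjustment), after tests on simulated data. TPM was used for levels between genes. Totals ran from 16401581 to 21972231 counts, and intervals cover the spread between these samples only. An exact permutation test of 2 against 2 samples cannot give p below 0.333. Alternatives were DESeq2 1.42.0, no scaling, no filter, limma 3.58.1 on TPM, a replicate block, a set coefficient of variation and leaving out each sample. All 10 genes were named. Of each wider list the 3 called genes with the smallest adjusted p were named for *Arid1a* loss with vehicle and for JSH-23 in *Arid1a* KO, and *Cdkn2a*, *Ppm1d*, *Trp63* and *Trp73* whatever their values. The genes and lists were chosen with earlier results of these data known. A combined TPM table of the series was not used here.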

Additional observations from a re-analysis of the deposited data

Results flagged for a closer look

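The effect of JSH-23 differed between the genotypes for 5 of the 10 genes by the interaction term in edgeR's quasi-likelihood test (log2 effect in *Arid1a* KO minus that in WT). *Trp53inp1* differed by -1.22 ± 0.07 (SE, adjusted p = 4.26e-23) and *Eda2r* by -1.13 ± 0.05 (adjusted p = 1.80e-32). The differences of *Mdm2* (-0.34 ± 0.07, adjusted p = 1.21e-04), *Mdm4* (-0.27 ± 0.05, adjusted p = 1.85e-05) and *Ccng1* (0.20 ± 0.06, adjusted p = 0.00761) were smaller than 1.5-fold. With the biological coefficient of variation set to 0.1 the adjusted p was 4.04e-06 for *Trp53inp1*, 2.03e-05 for *Eda2r*, 0.408 for *Mdm2*, 0.514 for *Mdm4* and 0.659 for *Ccng1*. *Ccng1* differed by 0.01 on the log2(TPM + 1) scale.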

How the results depend on the processing

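Of 750 log2 differences of the 10 genes under 15 alternatives, 733 kept their direction and their side of the threshold, 4 were no longer called, 1 became called and 12 changed sign. The sign changes were *Ccng1* for *Arid1a* loss with vehicle (0.0099 with no scaling, and -0.0542 to 0.0144 without single samples), *Ccng1* (-0.00503 and -0.00511) and *Bbc3* (-0.0797 and -0.0827) for *Arid1a* loss with JSH-23 and *Mdm4* (-0.0630 and -0.0645) and *Zmat3* (-0.0825 and -0.0925) for JSH-23 in *Arid1a* KO with limma on TPM with a pseudocount of 1 and 0.1, and *Bbc3* for JSH-23 in *Arid1a* KO (-0.0682 to 0.0364 without single samples). Leaving out single samples moved the number of called genes between 2 and 3 for *Arid1a* loss with vehicle and between 0 and 2 with JSH-23 (0 without the first and 2 without the second sample of *Arid1a* KO with JSH-23, when *Cdkn1a* passed with 0.59), and left it at 1, 2 and 2 elsewhere. *Trp53inp1* for *Arid1a* loss with vehicle was 0.58 with limma on log2(TPM + 1). The replicate block left the counts at 3, 1, 1, 2 and 2, and same-numbered samples shared only a number (r between -0.0072 and 0.0263). With the coefficient of variation set to 0.1 the 9 calls remained, with adjusted p up to 9.72e-04. Among the genes repressed through p21, calls for *Arid1a* loss with JSH-23 went from 4 to 1 and for the interaction from 6 to 3 with limma on log2(TPM + 1). The causes were not tested.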
